A study of Mus musculus with 6 samples.

Results

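The late risers were 75 genes of RAW 264.7 cells, a mouse leukemic monocyte macrophage line, that were near their starting level 12 h after mica fine particles (MFP) were added and at least 2-fold higher in signal by 48 h. They were chosen by their own measured values: the mean of the 12 h arrays lay less than 0.2 log2 units from the mean of the 0 h arrays, and the mean of the 48 h arrays lay at least 1 log2 unit above it. These limits were met by 75 of the 8149 named genes detected on all 6 arrays (0.92%). They were also met by 15 probes without a single gene symbol, which were left out. The differences at 12 h and 48 h therefore describe the selection, and no test of them is given for the 75 genes. MFP are ground mica, an aluminosilicate mineral, and the study asked how they act on macrophages. Total RNA of cells collected at 0, 12 and 48 h from cultures in RPMI with 2% FBS was labelled and hybridized to Illumina mouse whole-genome beadchips, with 2 arrays per time point. The labels give 100 μg/mL MFP for every array, and the arrays of 0 h served as nontreated control. None of the 6 arrays holds cells kept for 12 h or 48 h without particles, so time in culture and exposure to MFP cannot be told apart. Whether the 2 arrays per time point stem from separate cultures is not stated, so p-values reflect the spread between 6 arrays that may be technical replicates.

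Macrophages take up mineral particles into phagosomes, which mature by fusing with lysosomes that hold acid hydrolases and a proton pump. Damage or stress in a macrophage can change genes of the endoplasmic reticulum (ER), genes controlled by the transcription factor p53 and surface receptors for antibodies and T cells. Transcripts that change late after a stimulus are often products of such secondary programs, whereas immediate-early and interferon-stimulated genes change within hours in many settings.

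Signals were converted to log2 and quantile normalized over the 6 arrays, and every value below is on that scale unless another is named. Between 16176 and 17155 probes were detected per array. The lowest log2 value kept was 6.99, and 9 late risers had a mean at 0 h under 7.5, where differences are compressed, since no background had been subtracted. As each array reads the RNA of a whole culture, more RNA per cell and more cells with the transcript cannot be told apart. Of the macrophage markers 8 of 10 on the array were detected on all arrays. Among markers of T cells, B cells, fibroblasts, neutrophils and dendritic cells 0 were detected, and 1 epithelial marker was, with no change that passed the test. The deposited normalized table shows that the arrays had been normalized in 2 sets of 3, each with 1 array per time point. In set 1 the late risers were read on 0 h replicate 1, 12 h replicate 2 and 48 h replicate 2, and in set 2 on the other arrays. What the sets stand for is not given in the sources used here.

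Most increases were between 2-fold and 3-fold, and few were larger. The 48 h difference ranged from 1.01 to 3.07 with a median of 1.196, and its standard error (SE, n = 2 arrays per time point) from 0.082 to 0.34 with a median of 0.10. Before rounding, 4 late risers (Cp, Osr2, Ms4a6d and Dbp) were at least 2 log2 units higher at 48 h, 13 lay from 1.5 to just under 2, with Fas closest to that edge, and 58 were under 1.5. The 12 h difference ranged from -0.19 to 0.20 with a median of 0.10, and it was above 0 in 55 genes and below 0 in 20. The step from 12 h to 48 h ranged from 0.82 to 2.99 with a median of 1.17. As a median over the genes, the 0 h arrays stood at 0.025 and -0.025 from their mean, the 12 h arrays at 0.043 and 0.11, and the 48 h arrays at 1.18 and 1.24. Both 48 h arrays lay above the other 4 arrays in all 75 genes, as the choice of genes nearly fixes. At 12 h and 0 h the arrays overlapped in 45 genes, both 12 h arrays were above both 0 h arrays in 24, and both were below in 6.

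**Figure D1:**
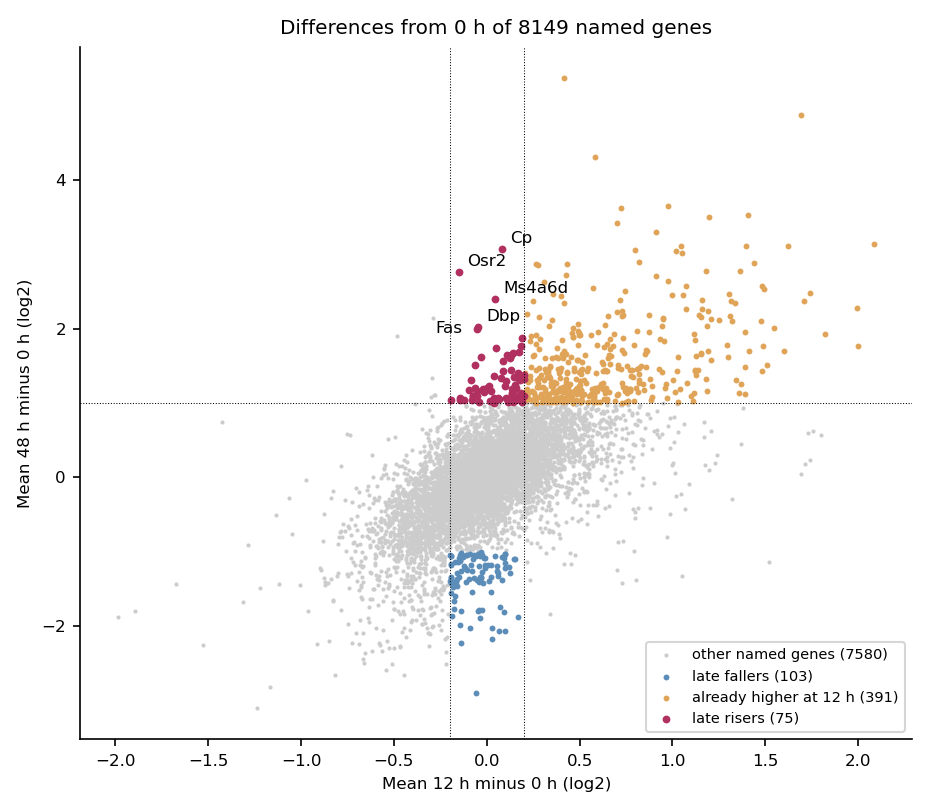
Each point is a named gene, with its mean 12 h minus 0 h difference on the horizontal axis and its mean 48 h minus 0 h difference on the vertical axis (log2). Dotted lines mark the limits of 0.2 and 1. The 75 late risers fill a narrow column beside 391 genes that were already at least 0.2 higher at 12 h, and both axes share the 0 h arrays.

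A gene at 0.2 was not necessarily unchanged at 12 h. The 95% interval of the 12 h difference reached 0.23 to either side at the median (0.19 to 0.78) in the fit without array sets. It is given for the precision only, since the 12 h difference chose the genes. In 4 genes the interval reached beyond a 1.5-fold change. The genes just inside the 48 h limit were Rnaset2b at 1.01, Os9 at 1.01, Naxe at 1.01 and Tmem167b at 1.01, and those just outside were Flot2 at 0.99, Them4 at 0.98, Pex11a at 0.97 and Tspan17 at 0.97. At the upper 12 h limit Pigh (0.199), Glb1 (0.198), 1600012H06Rik (0.198) and Zfand3 (0.192) were inside, and Pnpla2 (0.201), Tnfsf9 (0.203), Slc25a37 (0.205) and Klf9 (0.207) were outside. At the lower 12 h limit Tmem65 (-0.19), Osr2 (-0.15), Prrc2b (-0.15) and St3gal3 (-0.14) were inside. The nearest genes outside it were Lyz2 (-0.28), Msrb1 (-0.29), Gsto1 (-0.29) and Klf2 (-0.30). The limits divided a continuous spread of differences, and at the 48 h limit and the upper 12 h limit the genes on either side had nearly the same values.

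Among the 472 named genes at least 1 higher at 48 h, the late risers made up 15.9%. Another 391 were at least 0.2 higher at 12 h, and 6 were at least 0.2 lower, namely Lyz2, Msrb1, Gsto1, Klf2, Kdsr and Smpdl3a. Of the 430 genes at least 1 lower at 48 h, 103 (24%) were within 0.2 at 12 h and are called late fallers here. Over all named genes 4683 (57.5%) were within 0.2 at 12 h.

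**Figure D2:**
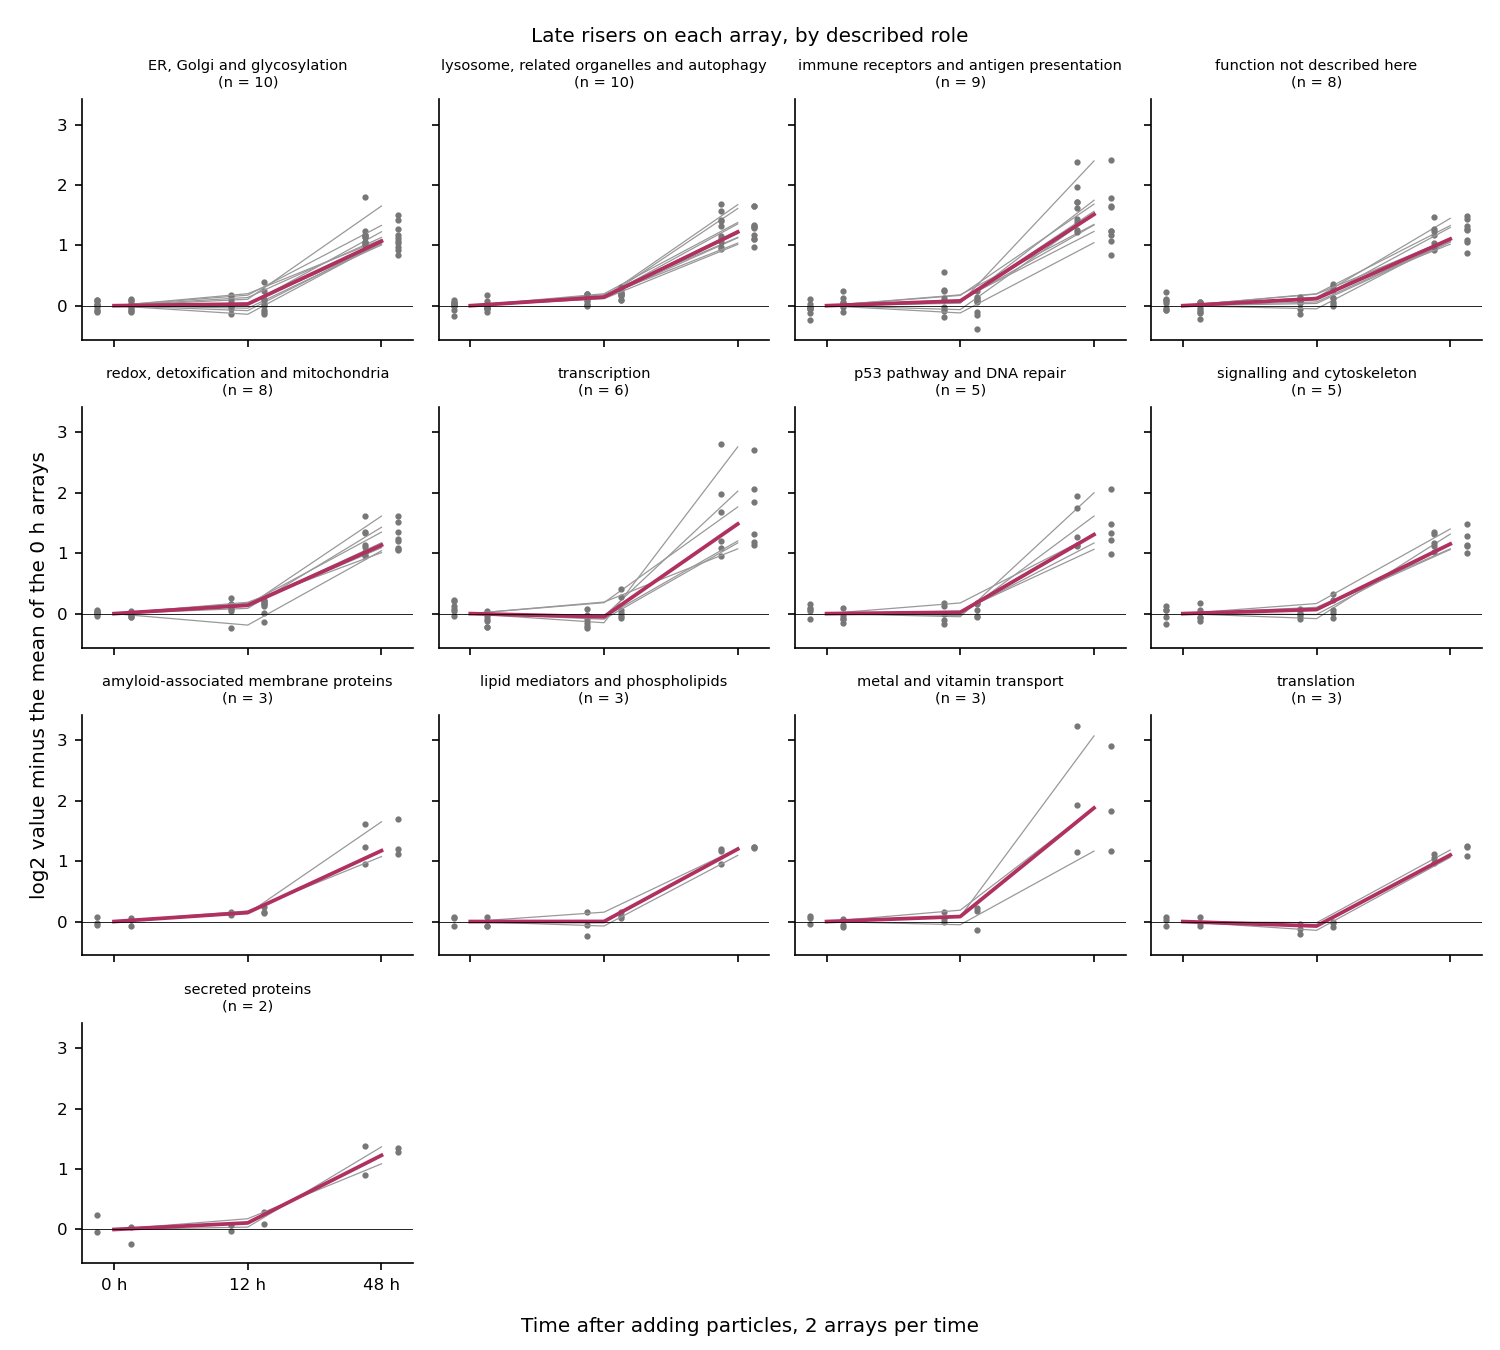
Points are the log2 values of each late riser on each array minus the mean of its 0 h arrays, thin lines join the means of each gene and the thick line is the median of the group. Groups by described role were set after the values were seen, and in each of them the 12 h points stay near 0 while the 48 h points lie near or above 1.

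Among the single lists that of p53 targets held the most late risers, 5, and 0.331% of all named genes were on it. The order depends on how the lists were split. By described role, genes of lysosomes, related organelles and autophagy numbered 10, ER and Golgi genes 10 and immune surface genes 9. p53 is a transcription factor that DNA damage and other stress stabilise. Fas, a death receptor of the TNF receptor family, had values of 7.89 and 7.70 on the 0 h arrays, 7.63 and 7.86 at 12 h and then 9.74 and 9.86 at 48 h. It was 4.00-fold higher at 48 h (2.00 ± 0.12 log2 units, SE). Other probes of Fas were detected on 5, 0 and 0 of the 6 arrays. Zmat3, a zinc finger RNA-binding protein, measured 9.50 and 9.19 on the 0 h arrays, 9.33 and 9.29 at 12 h and then 11.09 and 10.83 at 48 h, a difference of 1.62 ± 0.13. Mdm2, the ubiquitin ligase that targets p53 for degradation, measured 11.87 and 12.05 on the 0 h arrays, 12.14 and 12.14 at 12 h and then 13.24 and 13.30 at 48 h, a difference of 1.31 ± 0.095. Another probe of Mdm2 gave 0.29 at 12 h and 1.40 at 48 h, so by that probe the gene was outside the 12 h limit. Ercc5, the endonuclease XPG of nucleotide excision repair, measured 9.62 and 9.45 on the 0 h arrays, 9.66 and 9.49 at 12 h and then 10.67 and 10.53 at 48 h, a difference of 1.06 ± 0.11 that a second probe matched with 1.04. The costimulatory ligand Cd80, which was also on the list of p53 targets, measured 7.87 and 7.65 on the 0 h arrays, 7.88 and 7.83 at 12 h and then 8.98 and 9.001 at 48 h, a difference of 1.23 ± 0.10. In these 5 genes the 0 h and 12 h arrays were close together, and the 48 h arrays stood clear of them. Mgmt, which removes methyl groups from guanine in DNA, shared the list of nucleotide excision and direct DNA repair with Ercc5. It measured 9.44 and 9.37 on the 0 h arrays, 9.30 and 9.56 at 12 h and then 10.52 and 10.63 at 48 h, a difference of 1.17 ± 0.11, and its other detected probe gave 0.72.

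The rest of the p53 list was mostly higher at 48 h, and its count at 12 h depended on the processing. By limma with Benjamini-Hochberg adjustment, 13 of the 22 other detected p53 targets were higher and 1 was lower at 48 h at an adjusted p under 0.05, where 26.3% of all 9984 features were higher and 26.4% lower. At 12 h 7 were higher and 2 lower, where 10.4% of all features were higher and 8.85% lower. The 12 h count was 3 higher and 1 lower with 75th percentile scaling and 10 higher and 6 lower with the array set as a block. In the deposited normalized table, fitted without array sets, 0 genes of this or any other list passed at 12 h, and 6 p53 targets were higher and 0 lower at 48 h. The median difference of these other genes was 0.64 at 48 h and 0.19 at 12 h, beside 0.0075 and -0.017 over all features. The largest differences at 48 h among them were those of Gadd45a and Ephx1, both already higher at 12 h. Gadd45a was 0.73 higher at 12 h (adjusted p = 0.00126) and 3.63 at 48 h, and Ephx1 1.07 (adjusted p = 0.00126) and 2.26. Dcxr, a carbonyl reductase, was 1.91 ± 0.12 higher at 48 h (adjusted p = 8.75e-06) and did not pass at 12 h (0.26, adjusted p = 0.168). Plk2, a stress-induced kinase, was already higher at 12 h by 1.49 (adjusted p = 0.000181). Removing the late risers from a list lowers its share of higher genes at 48 h, and this holds for every list below. The shares over all features given above are those to set beside the counts of every list below. A gene said not to have passed at 12 h was not thereby unchanged, since that fit left out the array sets. With the array set as a block, 1957 of the 9984 features were higher at 12 h, against 1037 without it. Of the 19 other genes of the repair list 4 were higher and 6 lower at 48 h, beside 26.3% and 26.4% of all features. Their median was -0.18, and 0 were higher and 2 lower at 12 h. Xpc, the damage sensor of nucleotide excision repair, was 0.82 ± 0.12 higher (adjusted p = 0.000623).

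Promoter sequences of RefSeq (GRCm38.p6, 250 bases before and 50 bases after each annotated start) were available for 58 of the 75 late risers. They were searched for a set of short motifs, all given in the next paragraph. Among these were the hexamer CACGTG, an E-box that the lysosomal regulators TFEB and TFE3 and the clock proteins can bind, and the half-site of p53. Both strands were searched. The promoters of Fas and Mdm2 are shown because these genes lead the p53 group among those with a sequence. Capitals mark CACGTG in Fas, 110 bases before the start, and a p53 half-site in Mdm2, 186 bases before the start.
Fas, chr19:34290409-34290708, plus strand: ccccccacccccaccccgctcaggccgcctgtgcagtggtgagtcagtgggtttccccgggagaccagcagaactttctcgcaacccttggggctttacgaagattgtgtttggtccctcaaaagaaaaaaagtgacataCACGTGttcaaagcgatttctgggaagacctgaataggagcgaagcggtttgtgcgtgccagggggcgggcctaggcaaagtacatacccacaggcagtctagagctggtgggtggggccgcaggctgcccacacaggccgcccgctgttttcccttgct
Mdm2, chr10:117710709-117711008, minus strand: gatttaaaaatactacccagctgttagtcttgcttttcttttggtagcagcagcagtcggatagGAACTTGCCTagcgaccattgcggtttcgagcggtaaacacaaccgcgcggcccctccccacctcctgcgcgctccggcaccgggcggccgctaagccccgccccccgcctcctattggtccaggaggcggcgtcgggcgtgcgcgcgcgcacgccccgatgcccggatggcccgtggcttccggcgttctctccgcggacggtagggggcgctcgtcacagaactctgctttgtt

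With 1 promoter per gene (the first listed), CACGTG was in 12 of the 58 late risers (20.7%), in 10.9% of the 311 genes already higher at 12 h, in 9.89% of the 91 late fallers, in 11.1% of 6699 detected genes and in 7.24% of all 27025 promoters. The 12 genes were Fas, Slc41a3, Treml1, Macrod1, Glb1, Ceacam1, Hps3, Agtrap, Gtf2ird2, Mcfd2, Rnf145 and AW549877, which belong to several of the groups described here. The promoter of Dbp, an output factor of the clock, did not hold CACGTG. The p53 half-site was in 5.17% of the late risers, 6.48% of the detected genes and 8.37% of all promoters, and in none of Fas, Ercc5 or Cd80 within this window. The late risers with it were Mdm2, Denn2b and Vmp1, of which only Mdm2 was on the list of p53 targets. CCAAT was in 24.1% of the late risers, 59.3% of the late fallers and 39.5% of the detected genes. TGANTCA, a site that AP-1 can bind, was in 15.5% of the late risers and 4.73% of the detected genes. The median GC content was 60.8% in the late risers and 61.0% in the detected genes. A CpG ratio (observed over the number from base composition) over 0.6 was found in 63.8% of the late risers and 77.1% of the detected genes. These shares are descriptions of letters, and no test was made on them.

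Antibody receptors, class I MHC molecules and other immune surface proteins were the group with the highest median among those of at least 8 genes, 1.51 at 48 h over 9 genes. Ms4a6d, a membrane-spanning 4-domain protein of macrophages, measured 10.87 and 10.93 on the 0 h arrays, 10.88 and 10.999 at 12 h and then 13.28 and 13.31 at 48 h, and a second probe gave 2.14 at 48 h. Its difference of 2.397 ± 0.088 was 5.27-fold, and its 0 h and 12 h arrays lay within 0.13 of each other. It was the only member of its family detected on all arrays. Fcgrt, the neonatal Fc receptor that salvages IgG and albumin, measured 9.15 and 9.19 on the 0 h arrays, 9.12 and 9.32 at 12 h and then 10.88 and 10.95 at 48 h, a difference of 1.75 ± 0.10 (second probe 1.54). Fcgr1, the high-affinity IgG receptor CD64, measured 8.91 and 8.96 on the 0 h arrays, 9.03 and 9.17 at 12 h and then 10.65 and 10.58 at 48 h, a difference of 1.68 ± 0.092. Both 48 h arrays of these receptors were more than 1 log2 unit above every earlier array.

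Some other Fc receptors passed at 12 h already. Of the 5 others detected 4 were higher and 0 lower at 48 h (median 1.05), and 3 were higher at 12 h (median 0.63). Fcgr3 was 1.30 higher at 12 h (adjusted p = 0.000181) and 2.47 at 48 h, and Fcgr4 1.05 (adjusted p = 0.00145) and 3.01. B2m, the light chain of both Fcgrt and class I molecules, did not pass at 12 h (0.19, adjusted p = 0.174) and was 0.81 ± 0.090 higher at 48 h (adjusted p = 0.000158).

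The MHC class I genes H2-Q8 and H2-D1, which present peptides to CD8 T cells differed in how close their arrays lay. H2-Q8 measured 9.17 and 9.65 on the 0 h arrays, 9.96 and 9.02 at 12 h and then 11.37 and 10.57 at 48 h, a difference of 1.56 ± 0.34 with the largest SE of the 75 genes. Its set 1 arrays were low and its set 2 arrays high at each time point, so that the 12 h difference was -0.14 in set 1 and 0.31 in set 2. A second probe gave 0.42 at 12 h and 1.37 at 48 h. H2-D1 measured 13.36 and 13.61 on the 0 h arrays, 13.74 and 13.38 at 12 h and then 14.93 and 14.71 at 48 h, a difference of 1.34 ± 0.15. Its 3 other probes were 0.32 to 0.37 higher at 12 h and 1.82 to 2.08 higher at 48 h. Class I genes are near-identical copies, and a probe can read more than one of them. The list also held genes of peptide loading. Of its 12 other genes 8 were higher and 2 lower at 48 h (median 0.93) and 3 higher at 12 h (median 0.24). The 2 lower ones were Calr and Pdia3, ER chaperones that help to load class I molecules, and the class I genes H2-K1, H2-Q6, H2-Q7, H2-T23 and H2-M3 were 0.97 to 1.95 higher. At 12 h 1 gene of the list was higher with 75th percentile scaling and 6 with the array set as a block, and 4 were higher at 48 h in the deposited normalized table. By all these probes H2-Q8 and H2-D1 are late risers only on the brightest probe.

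The other immune genes were receptors of the immunoglobulin superfamily. Treml1, a receptor known from platelets, measured 8.02 and 7.97 on the 0 h arrays, 7.81 and 8.05 at 12 h and then 9.39 and 9.63 at 48 h, a difference of 1.51 ± 0.12. Ceacam1, an inhibitory adhesion receptor, was 1.35 higher at 48 h, with 8.75 and 8.21 on the 48 h arrays. Cd300a, an inhibitory receptor for membrane lipids, was 1.04 higher, but 2 other probes were 0.53 and 0.68 higher and were 0.21 and 0.40 below 0 h at 12 h. The list of costimulation and TNF family genes held Fas and Cd80. Of its 14 other genes 5 were higher and 1 lower at 48 h (median 0.13), and 4 were higher and 2 lower at 12 h. Cd86, the second ligand of CD28 beside Cd80, was 0.57 higher at 12 h (adjusted p = 0.00402) and 2.55 at 48 h. Cd40, the receptor of T cell help, did not pass at 12 h (0.36, adjusted p = 0.166) and was 2.47 ± 0.16 higher at 48 h (adjusted p = 1.04e-05).

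**Figure D3:**
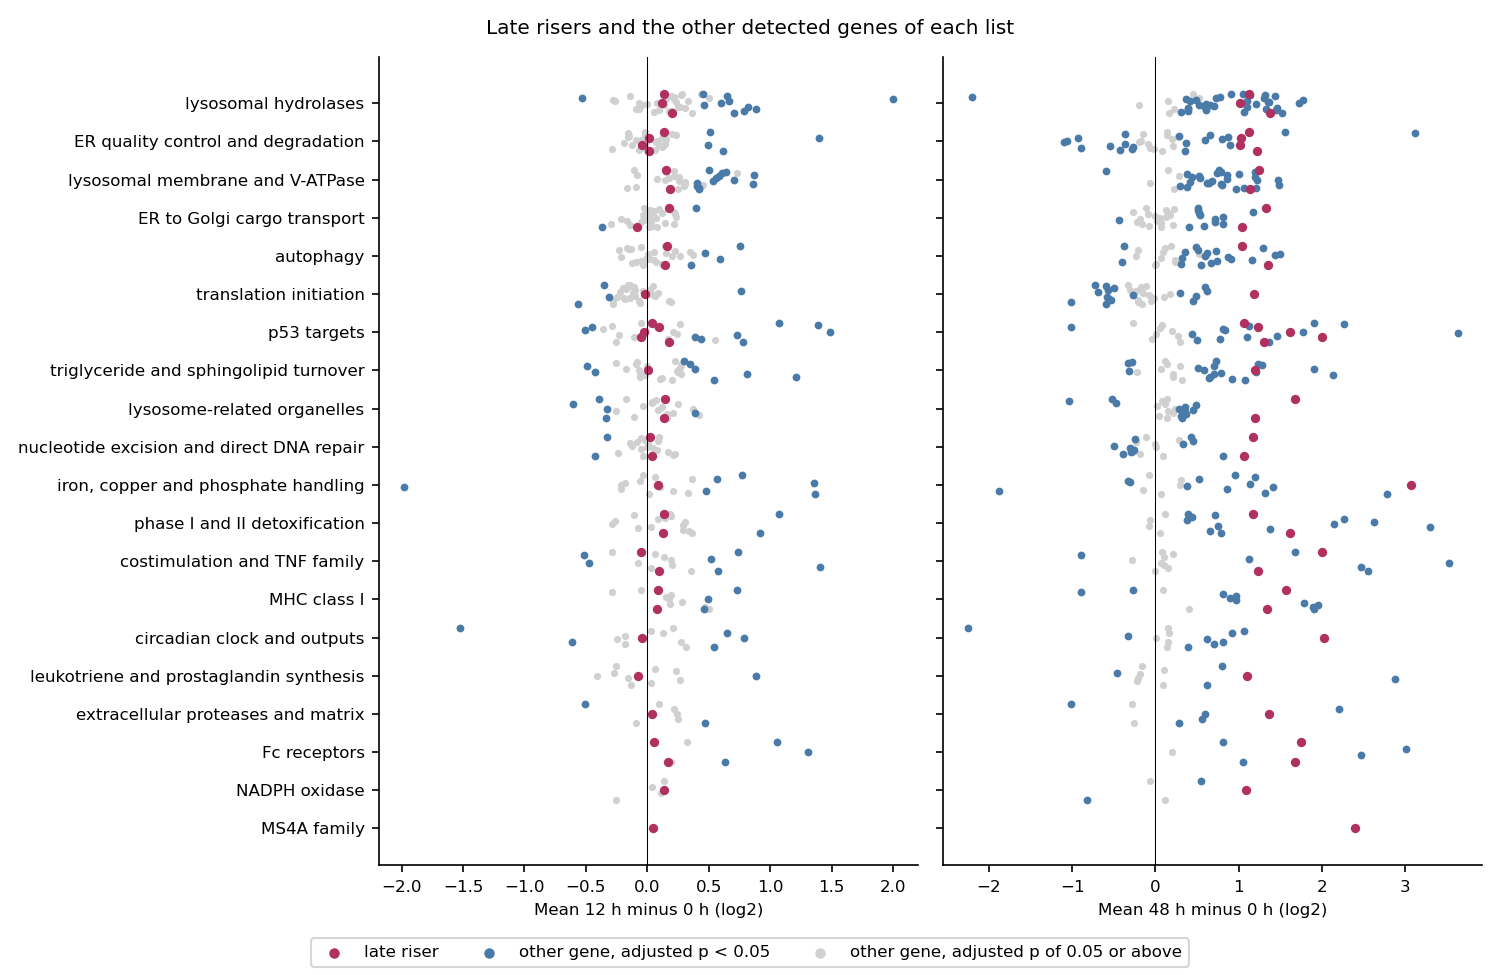
Each point is a detected gene of a list, with its mean difference from 0 h (log2) at 12 h on the left and at 48 h on the right. Red points are late risers, whose place was fixed by the choice of genes, blue points are other genes with an adjusted p under 0.05 by limma, and grey points are other genes that did not pass. In the lysosomal lists the blue points at 48 h lie almost all above 0, and in the translation initiation list most lie below.

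Lysosomal genes, genes of lysosome-related organelles and autophagy genes numbered 10, with a median of 1.22 at 48 h. Glb1, the lysosomal β-galactosidase, measured 10.82 and 10.73 on the 0 h arrays, 10.96 and 10.98 at 12 h and then 12.19 and 12.11 at 48 h, a difference of 1.38 ± 0.087. It lay just inside the 12 h limit, with both 12 h arrays above both 0 h arrays. Rnaset2b, an acid ribonuclease with a near-identical copy in the mouse genome, measured 12.46 and 12.48 on the 0 h arrays, 12.61 and 12.57 at 12 h and then 13.53 and 13.44 at 48 h, a difference of 1.01 ± 0.086. Cpq, a carboxypeptidase, measured 7.21 and 7.18 on the 0 h arrays, 7.19 and 7.47 at 12 h and then 8.13 and 8.51 at 48 h, a difference of 1.124 ± 0.14, with a gap of 0.38 between the 48 h arrays. Atp6v1g1, a stalk subunit of the proton pump V-ATPase, measured 8.67 and 9.01 on the 0 h arrays, 9.04 and 8.94 at 12 h and then 10.16 and 10.01 at 48 h, a difference of 1.24 ± 0.13. Laptm4a, a lysosomal transmembrane protein, measured 11.50 and 11.64 on the 0 h arrays, 11.76 and 11.75 at 12 h and then 12.73 and 12.68 at 48 h, a difference of 1.132 ± 0.091. The 48 h arrays of these genes stood above every earlier array, by smaller steps than in the leading immune genes.

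Other lysosomal genes were mostly higher at 48 h on the scale used here, and fewer passed at 12 h. Of the 40 other lysosomal hydrolases 33 were higher and 1 was lower at 48 h (median 0.72), and 10 were higher and 1 lower at 12 h (median 0.23). Of the 31 other lysosomal membrane and V-ATPase genes 26 were higher and 1 lower at 48 h (median 0.74), and 13 higher and 0 lower at 12 h (median 0.30). These counts moved with the processing. At 12 h 21 hydrolases and 23 membrane genes were higher with the array set as a block, 6 and 6 with 75th percentile scaling and 0 and 0 in the deposited normalized table. At 48 h 10 hydrolases and 3 membrane genes were higher in the deposited table. Hexa, the α subunit of β-hexosaminidase, was 0.71 higher at 12 h (adjusted p = 0.00243) and 1.52 at 48 h. Slc17a5, the lysosomal sialic acid exporter, did not pass at 12 h (0.30, adjusted p = 0.143) and was 1.22 ± 0.13 higher at 48 h (adjusted p = 0.000116). Hydrolases made up 4.00% of the late risers, 4.09% of the 391 genes already higher at 12 h and 0.528% of all named genes.

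Mreg, melanoregulin, which acts in the transport of melanosomes and in the maturation of phagosomes and lysosomes, measured 9.06 and 9.09 on the 0 h arrays, 9.20 and 9.23 at 12 h and then 10.76 and 10.73 at 48 h. Its difference of 1.67 ± 0.083 was among the most even of the 75 genes, with arrays of a time point within 0.038 of each other. Hps3, a subunit of the BLOC-2 complex that sorts cargo to lysosome-related organelles, measured 10.67 and 10.58 on the 0 h arrays, 10.71 and 10.81 at 12 h and then 11.73 and 11.91 at 48 h, a difference of 1.196 ± 0.10 (second probe 1.19). Of the 20 other genes of that list 8 were higher and 3 lower at 48 h (median 0.18), and 1 higher and 4 lower at 12 h. Rab27a, the GTPase that docks such organelles, was lower at 48 h (-1.03, adjusted p = 0.000163). On this list were 2 of the 75 late risers, 0 of the 391 genes already higher at 12 h and 22 of all 8149 named genes (0.27%). With so few genes, 0 of 391 is near the share of all named genes. In the lysosomal group CACGTG was absent from the promoters of Mreg, Ccpg1, Laptm4a, Vmp1 and Rnaset2b within the window searched. The promoters of Glb1 and Hps3 are shown as those of the lysosomal group that hold CACGTG, in capitals, 48 and 15 bases before the start.
Glb1, chr9:114400828-114401127, plus strand: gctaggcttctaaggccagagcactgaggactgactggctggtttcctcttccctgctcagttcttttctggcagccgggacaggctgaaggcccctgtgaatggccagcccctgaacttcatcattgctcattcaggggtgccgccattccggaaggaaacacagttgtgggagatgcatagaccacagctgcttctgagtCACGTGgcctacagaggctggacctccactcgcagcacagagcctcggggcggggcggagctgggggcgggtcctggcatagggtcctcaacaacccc
Hps3, chr3:20035261-20035560, minus strand: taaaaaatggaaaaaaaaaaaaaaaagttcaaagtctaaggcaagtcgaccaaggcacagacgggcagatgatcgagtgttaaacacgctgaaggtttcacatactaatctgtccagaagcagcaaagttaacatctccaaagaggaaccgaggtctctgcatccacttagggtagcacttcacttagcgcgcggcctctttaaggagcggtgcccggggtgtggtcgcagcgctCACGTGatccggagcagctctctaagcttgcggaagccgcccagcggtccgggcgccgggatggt

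Autophagy carries cytoplasm and organelles to the lysosome. Ccpg1, a receptor for the autophagy of the ER, measured 9.73 and 9.61 on the 0 h arrays, 9.69 and 9.89 at 12 h and then 11.23 and 11.32 at 48 h, a difference of 1.61 ± 0.10. Map1lc3a, one of the LC3 proteins that coat the autophagosome, measured 7.45 and 7.26 on the 0 h arrays, 7.45 and 7.55 at 12 h and then 8.77 and 8.66 at 48 h, a difference of 1.35 ± 0.10. Vmp1, an ER protein needed to form autophagosomes, measured 11.65 and 11.58 on the 0 h arrays, 11.63 and 11.92 at 12 h and then 12.59 and 12.72 at 48 h, a difference of 1.04 ± 0.12 (second probe 1.08). For Vmp1 the 12 h arrays were apart, with replicate 2 above the 0 h arrays. Of the 30 other autophagy genes 17 were higher and 2 lower at 48 h (median 0.42), and 4 higher and 0 lower at 12 h (median 0.057). Gabarapl1, a relative of LC3, did not pass at 12 h (0.26, adjusted p = 0.063) and was 1.44 ± 0.084 higher at 48 h (adjusted p = 6.04e-06). Sqstm1, the cargo receptor p62, was 0.75 higher at 12 h (adjusted p = 0.00148) and 1.496 at 48 h.

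The ER and Golgi apparatus supplied another 10 late risers with a median of 1.07, most of them near the 48 h limit. Man2a2, a Golgi mannosidase of N-glycan trimming, measured 10.69 and 10.90 on the 0 h arrays, 10.97 and 10.83 at 12 h and then 12.59 and 12.30 at 48 h, a difference of 1.65 ± 0.13. Its 2 other probes gave only 0.65 and 0.56. Sil1, the nucleotide exchange factor of the ER chaperone BiP, measured 9.03 and 8.96 on the 0 h arrays, 8.99 and 9.03 at 12 h and then 10.17 and 10.27 at 48 h, a difference of 1.22 ± 0.088. Tmbim6, an ER membrane protein that restrains cell death and the sensor IRE1, measured 13.22 and 13.41 on the 0 h arrays, 13.48 and 13.42 at 12 h and then 14.45 and 14.44 at 48 h, a difference of 1.130 ± 0.10. Rnf145, an ER ubiquitin ligase, measured 9.39 and 9.38 on the 0 h arrays, 9.42 and 9.37 at 12 h and then 10.53 and 10.30 at 48 h, a difference of 1.03 ± 0.10. The lectin Os9, which delivers misfolded glycoproteins to ER-associated degradation, measured 10.22 and 10.27 on the 0 h arrays, 10.23 and 10.18 at 12 h and then 11.30 and 11.22 at 48 h, a difference of 1.01 ± 0.086. In these genes the 12 h arrays lay among or next to the 0 h arrays. Of the 32 other genes of ER quality control 10 were higher and 10 lower at 48 h (median 0.033), and 4 higher and 0 lower at 12 h. Ern1, which encodes IRE1, was 1.56 higher at 48 h (adjusted p = 5.58e-06), whereas Creld2, a secreted ER stress protein, was lower (-1.06, adjusted p = 7.41e-05). Over all features 26.3% were higher and 26.4% lower at 48 h, so these counts are not read as a trait of the list. The late risers on it were all chosen from the upward side.

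Sdf4, a calcium-binding protein of the Golgi lumen, measured 8.36 and 8.17 on the 0 h arrays, 8.37 and 8.51 at 12 h and then 9.50 and 9.69 at 48 h, a difference of 1.33 ± 0.11. Mcfd2, the partner of the cargo receptor LMAN1 in carrying clotting factors from the ER, measured 11.13 and 11.28 on the 0 h arrays, 11.14 and 11.10 at 12 h and then 12.21 and 12.27 at 48 h, a difference of 1.04 ± 0.091. Of the 30 other genes of ER to Golgi transport 11 were higher and 1 lower at 48 h (median 0.14), and 1 higher and 1 lower at 12 h. Tmed10, a cargo receptor of that route, was near its starting level at 12 h (-0.018, adjusted p = 0.912) and 0.81 ± 0.087 higher at 48 h (adjusted p = 0.000123). The sialyltransferase gene St3gal3 was 1.04 higher, Tmem167b 1.01, and Pigh, which acts in the synthesis of GPI anchors, 1.09. A second probe of Pigh was only 0.14 higher at 48 h, the smallest difference among all further probes. Among the ER and Golgi genes, Os9, St3gal3, Pigh and Tmem167b had promoters without CACGTG in the window searched. The promoter of Mcfd2 is shown because it holds CACGTG 73 bases before the start.
Mcfd2, chr17:87265898-87266197, minus strand: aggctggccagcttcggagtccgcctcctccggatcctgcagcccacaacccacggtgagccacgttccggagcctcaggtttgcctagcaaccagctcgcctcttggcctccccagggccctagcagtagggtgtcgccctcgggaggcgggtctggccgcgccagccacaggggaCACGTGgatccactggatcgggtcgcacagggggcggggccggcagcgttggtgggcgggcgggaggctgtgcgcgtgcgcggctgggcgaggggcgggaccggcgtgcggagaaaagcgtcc

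Transcription factors included 3 of the 7 largest differences. Osr2, an odd-skipped zinc finger factor known from skeletal development, measured 7.42 and 7.33 on the 0 h arrays, 7.14 and 7.31 at 12 h and then 10.19 and 10.09 at 48 h, a difference of 2.76 ± 0.10 or 6.78-fold. Its second probe gave 2.19 at 48 h and -0.18 at 12 h. Dbp, an output factor of the circadian clock, measured 9.76 and 9.59 on the 0 h arrays, 9.52 and 9.74 at 12 h and then 11.66 and 11.74 at 48 h, a difference of 2.03 ± 0.11 or 4.08-fold. Nacc2, a BTB domain repressor, measured 7.44 and 7.19 on the 0 h arrays, 7.40 and 7.60 at 12 h and then 8.997 and 9.16 at 48 h, a difference of 1.77 ± 0.12. Osr2 and Nacc2 started near the lowest values kept, and the 48 h arrays of all 3 genes were more than 1 unit above the earlier arrays. Tgif1, a homeodomain repressor of TGF-β signaling, was 1.204 higher (other probes 1.140 and 1.135), the Integrator subunit gene Ints12 1.17 and Gtf2ird2 1.07. Of the 13 other clock genes detected 6 were higher and 2 lower at 48 h (median 0.16), and 3 higher and 2 lower at 12 h. Tef, a leucine zipper factor related to Dbp, did not pass at 12 h (-0.18, adjusted p = 0.21) and was 0.81 ± 0.092 higher at 48 h (adjusted p = 0.000172). The deubiquitinase Usp2, another output gene of the clock, was lower at both times, by -1.53 at 12 h (adjusted p = 0.000103) and -2.25 at 48 h. The 3 time points are not spaced to read a daily rhythm.

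The largest difference was that of Cp, ceruloplasmin, the copper-carrying ferroxidase that helps iron leave cells. It measured 7.17 and 6.997 on the 0 h arrays, 7.08 and 7.25 at 12 h and then 10.32 and 9.99 at 48 h, a difference of 3.07 ± 0.13 or 8.43-fold. Its 4 earlier arrays lay within 0.25 of each other just above the lowest values kept. Other probes of Cp were detected on 0, 0 and 2 of the 6 arrays, so its difference rests on a single probe. Of the 17 other genes of iron, copper and phosphate handling 9 were higher and 3 lower at 48 h (median 0.38), and 5 higher and 1 lower at 12 h. Slc40a1, the iron exporter ferroportin that works with ferroxidases, was 1.36 higher at 12 h (adjusted p = 0.000181) and 2.78 at 48 h. Slc41a3, a magnesium transporter, measured 7.71 and 7.80 on the 0 h arrays, 7.91 and 7.98 at 12 h and then 9.69 and 9.59 at 48 h, a difference of 1.88 ± 0.091, and a second probe was 0.29 higher at 12 h and 1.91 at 48 h. Slc19a2, a thiamine transporter, was 1.17 higher.

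Redox and detoxification enzymes and mitochondrial proteins made up 8 late risers. Aldh2, the mitochondrial aldehyde dehydrogenase, measured 13.10 and 13.05 on the 0 h arrays, 13.17 and 13.22 at 12 h and then 14.69 and 14.68 at 48 h, a difference of 1.62 ± 0.084. Ugt1a6a, a glucuronosyltransferase whose probe may read other copies of its locus, measured 7.74 and 7.74 on the 0 h arrays, 7.82 and 7.93 at 12 h and then 8.88 and 8.94 at 48 h, a difference of 1.17 ± 0.088. Cyba, the p22phox subunit of the phagocyte NADPH oxidase, measured 13.68 and 13.67 on the 0 h arrays, 13.93 and 13.69 at 12 h and then 14.77 and 14.76 at 48 h, a difference of 1.09 ± 0.10. Each of these genes had 48 h arrays within 0.07 of each other. Of the 16 other genes of phase I and II detoxification 12 were higher and 0 lower at 48 h (median 0.68), and 2 higher at 12 h (median 0.19). Gstp1, a glutathione transferase, did not pass at 12 h (0.31, adjusted p = 0.052) and was 2.62 ± 0.092 higher at 48 h (adjusted p = 8.87e-07). Of the 4 other NADPH oxidase genes 1 was higher, Ncf4 (0.55 ± 0.10, adjusted p = 0.00223), and 1 lower, Ncf1 (-0.82, adjusted p = 0.000158), at 48 h. At 12 h 0 of these 4 passed. Macrod1, which removes ADP-ribose from proteins, measured 7.96 and 7.85 on the 0 h arrays, 7.95 and 8.03 at 12 h and then 9.25 and 9.42 at 48 h, a difference of 1.43 ± 0.10. The mitochondrial micropeptide gene Mtln was 1.35 higher, Oxr1, an oxidation resistance gene, 1.10, Tmem65 1.04 and Naxe, which repairs damaged NADPH, 1.01.

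Prnp, App and Itm2b, membrane proteins known from amyloid disease, were late risers. Prnp, the prion protein, measured 11.85 and 11.88 on the 0 h arrays, 11.98 and 12.02 at 12 h and then 13.47 and 13.56 at 48 h, a difference of 1.65 ± 0.086. App, the amyloid precursor protein, was 1.17 higher, and its other probes were 1.35 and 1.24 higher at 48 h but 0.39 and 0.016 at 12 h. Itm2b, whose product binds App in human cells, was 1.08 higher, and another probe gave 0.34 at 12 h and 1.64 at 48 h. For App and Itm2b the lateness therefore depended on the probe, whereas Prnp had 1 detected probe, at 0.13 at 12 h.

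Lipid genes were Ltc4s, Pla1a and Anxa6. Ltc4s, which makes leukotriene C4, measured 8.17 and 8.03 on the 0 h arrays, 7.85 and 8.20 at 12 h and then 9.06 and 9.33 at 48 h, a difference of 1.10 ± 0.14. Of the 10 other genes of leukotriene and prostaglandin synthesis 3 were higher and 1 lower at 48 h (median -0.036), and 1 higher at 12 h. Alox5, the 5-lipoxygenase upstream of Ltc4s, was 0.62 ± 0.087 higher at 48 h (adjusted p = 0.000541), and Dpep2, a dipeptidase that acts on leukotriene D4 downstream, 2.88 ± 0.10 (adjusted p = 8.87e-07). Neither passed at 12 h (-0.13 and 0.26, adjusted p = 0.343 and 0.11). Pla1a, a phospholipase specific for phosphatidylserine, measured 7.88 and 8.04 on the 0 h arrays, 7.90 and 8.03 at 12 h and then 9.12 and 9.20 at 48 h, 2.30-fold higher at 48 h (other probes 0.71 and 0.86 log2 units). Of the 26 other genes of triglyceride and sphingolipid turnover 15 were higher and 3 lower at 48 h (median 0.62), and 6 higher and 2 lower at 12 h. Sphk2, a sphingosine kinase, was 1.28 ± 0.088 higher at 48 h (adjusted p = 1.35e-05). The membrane-binding annexin Anxa6 was 1.21 higher.

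Secreted proteins were Mmp9 and Insl3. Mmp9, the gelatinase that macrophages release, measured 7.11 and 7.18 on the 0 h arrays, 7.13 and 7.24 at 12 h and then 8.53 and 8.50 at 48 h, a difference of 1.37 ± 0.089. Its 4 earlier arrays lay within 0.13 of each other. Of the 7 other genes of extracellular proteases and matrix 4 were higher and 1 lower at 48 h (median 0.28), and 1 higher and 1 lower at 12 h. Ecm1 was 2.20 ± 0.10 higher at 48 h (adjusted p = 1.54e-06) and Plaur, the urokinase receptor, lower (-1.01, adjusted p = 7.47e-05). Insl3, an insulin-like hormone, was 1.09 higher, with 8.07 and 7.60 on the 0 h arrays.

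Translation was represented by Pdcd4, Rpl22 and Prrc2b. Pdcd4, an inhibitor of the initiation helicase eIF4A, measured 8.70 and 8.86 on the 0 h arrays, 8.74 and 8.78 at 12 h and then 9.90 and 10.03 at 48 h, a difference of 1.19 ± 0.10 (second probe 1.22). Of the other 31 genes of translation initiation 5 were higher and 11 lower at 48 h (median -0.20), and 15 did not pass. Over all features 26.3% were higher and 26.4% lower at 48 h. At 12 h 1 gene of the list was higher and 3 were lower. Eif2b1, a subunit of the exchange factor eIF2B, was lower at 48 h (-1.01, adjusted p = 3.19e-05), and Eif4a2, one of the helicases that Pdcd4 binds, was 0.62 ± 0.083 higher (adjusted p = 0.000423). The ribosomal protein gene Rpl22 was 1.10 higher and Prrc2b 1.06.

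The remaining genes had no common role. Denn2b, an exchange factor for a Rab GTPase, measured 8.19 and 8.06 on the 0 h arrays, 8.14 and 8.44 at 12 h and then 9.44 and 9.61 at 48 h, a difference of 1.40 ± 0.12 (second probe 1.07). 2410006H16Rik, a noncoding transcript, measured 9.33 and 9.47 on the 0 h arrays, 9.53 and 9.53 at 12 h and then 10.86 and 10.83 at 48 h, a difference of 1.45 ± 0.089. The cytoskeletal septin Septin8 was 1.32 higher, Bcas3 1.15, the angiotensin receptor-binding Agtrap 1.07 and Lztr1, which directs the degradation of RAS proteins, 1.06. The genes without a described role here, 1600012H06Rik, Zc2hc1a, Zfand3, Gsg1, 1810062O18Rik, Sh3bgrl and AW549877, were 1.02 to 1.33 higher. For 1600012H06Rik 2 other probes gave 0.21 and 0.50.

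Late risers on any of the lists numbered 35 (46.7% of 75), against 79 (20.2%) of the genes already higher at 12 h, 11 (10.7%) of the late fallers and 474 (5.82%) of all named genes. The lists were drawn up with results of these arrays known, so this gap in list membership is no evidence on its own. The p53 targets made up 6.67% of the late risers, 2.05% of the genes already higher at 12 h and 0.331% of all named genes. For ER quality control these shares were 5.33%, 0.512% and 0.442%. Interferon-stimulated genes and histones held 0 late risers. As they made up only 0.27% and 0.515% of all named genes, 0 among 75 genes is near those shares. Of the 22 interferon-stimulated genes detected 17 were higher and 0 lower at 12 h (median 0.51), and 11 higher and 4 lower at 48 h (median 0.26). With 75th percentile scaling 5 of them were higher at 12 h, and the deposited normalized table gave 0 at 12 h and 2 higher at 48 h. Of the 42 histone genes detected 15 were higher and 12 lower at 48 h and 2 higher at 12 h, and 9 were late fallers. Of the 8 macrophage markers 4 were higher and 2 lower at 48 h.

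A further probe detected on all arrays was present for 25 of the 75 genes, 34 probes in all. Another 56 probes of late risers were not detected on all 6 arrays, and no differences were computed for them. The same counts were not made for probes of other genes. All 34 were above 0 at 48 h, 20 of them by at least 1, with a median of 1.08. Within 0.2 at 12 h were 23, with a median of 0.073, and 12 of the 34 met both limits. The limits had been applied to the brightest probe, so the values of the further probes are the only ones here that did not choose the genes, although they come from the same arrays.

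**Figure D4:**
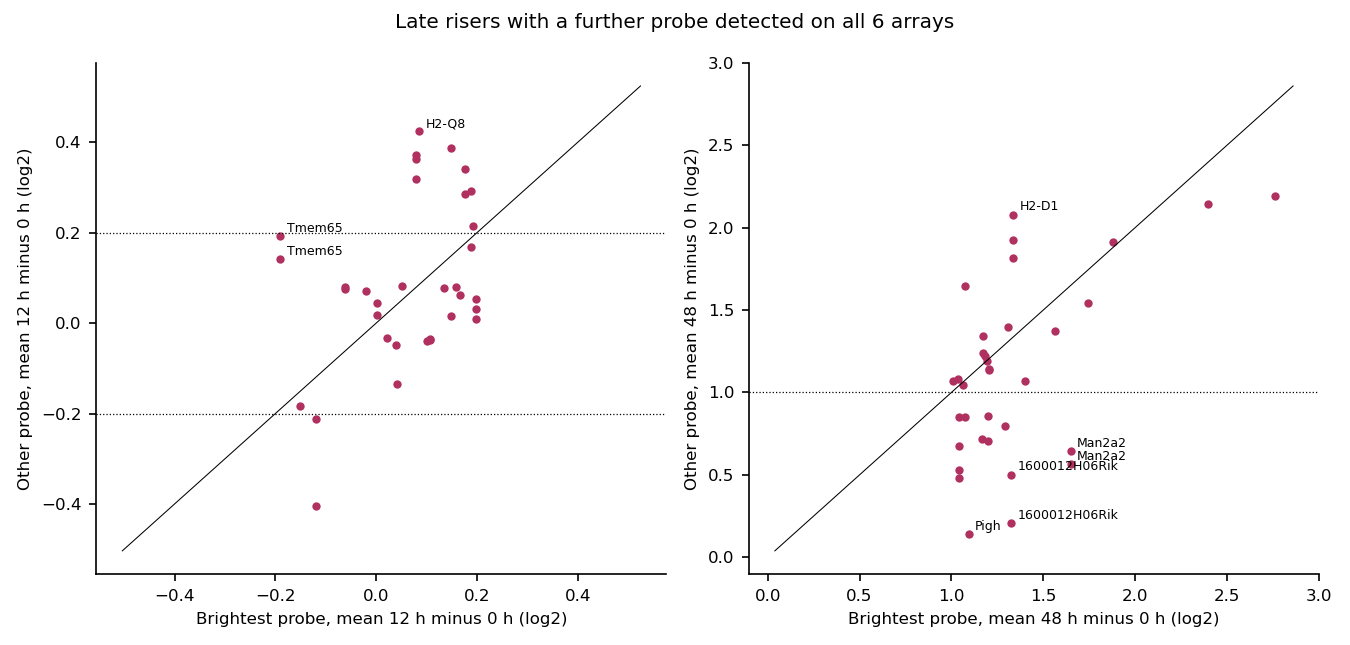
Each point is a further probe of a late riser, plotted against the probe that was used, as the mean 12 h minus 0 h difference on the left and the mean 48 h minus 0 h difference on the right (log2). The line marks equal values and dotted lines the limits. All points on the right are above 0, and those of Pigh, 1600012H06Rik and Man2a2 are far below the line.

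Within each array set the pattern was looser. At 48 h 67 genes were at least 1 higher in set 1 and 69 in set 2, and at 12 h 58 and 62 were within 0.2. Both limits were met in both sets by 36 genes. Arrays of one time point differed by more than 0.4 in 8 genes, with the largest gap, 0.93, in H2-Q8. Under 12 other ways of processing that kept the limits, 23 genes met them each time: Cp, Ms4a6d, Dbp, Fas, Fcgrt, Mreg, Prnp, Zmat3, Aldh2, Treml1, Macrod1, Mmp9, Septin8, Cd80, Sil1, Hps3, Pdcd4, Slc19a2, Ugt1a6a, Bcas3, Ints12, 1810062O18Rik and St3gal3. Osr2 met them in 8 of 12 and Pigh in 3. The genes met in every setting include members of the p53, Fc receptor, lysosome-related organelle and detoxification groups. From the same groups, Mdm2 and Ercc5 met the limits in 10 of 12 and Fcgr1 in 11. No late riser on the lists of lysosomal hydrolases, lysosomal membrane and V-ATPase, autophagy or MHC class I met them in all 12. The same held for the lists of DNA repair, ER to Golgi transport, leukotriene synthesis, triglyceride and sphingolipid turnover and NADPH oxidase.

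**Figure D5:**
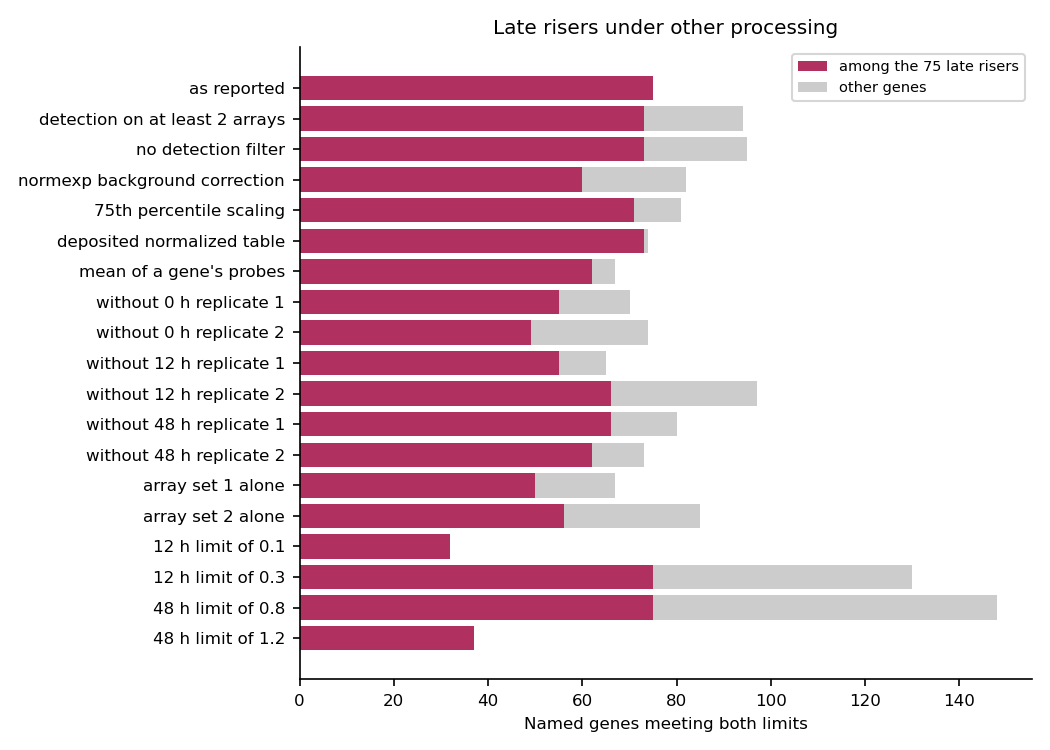
Bars give the number of named genes that met both limits under each way of processing, with genes among the 75 late risers in red and other genes in grey. The count is 75 as reported and runs from 32 with a 12 h limit of 0.1 to 148 with a 48 h limit of 0.8.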

How the data were processed

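Signal intensity, as the authors deposited it, was a GenomeStudio export without normalization. Deposited detection p-values set each probe against negative controls. A second deposited table holds log2 values that the authors quantile normalized in 2 sets, and it was used only as an alternative. The submitters' processing notes name R 3.0.2. The 14091 probes (31.1%) at a detection p below 0.05 on each of 6 arrays were log2 transformed and quantile normalized. The brightest probe per gene, named by the platform annotation through Entrez ID (12256 probes with 1 symbol, 6 with several, 1829 with none), gave 9984 features. limma 3.58.1 in R 4.3.3 was fitted with 1 mean per time point and 3 residual degrees of freedom and was tested on simulated data. The members and lists were chosen with earlier results of these data known. Array values are given for the 20 largest late risers and those on a list, other late risers are named with a difference or range, and up to 4 called genes are named per list. The MS4A family list had 1 detected gene.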

Additional observations from a re-analysis of the deposited data

How the results depend on the processing

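The number of late risers depended most on the limits, with 32 at a 12 h limit of 0.1, 130 at 0.3, 148 at a 48 h limit of 0.8 and 37 at 1.2. It was 65 to 97 with one array left out, and 67 and 85 by array set 1 or 2 alone. Without 0 h replicate 2 it was 74, of which 49 were among the 75, and with normexp correction 82, of which 60 were. It was 94 with detection on 2 arrays, 95 without a detection filter, 81 with 75th percentile scaling, 74 in the deposited normalized table and 67 with the mean of a gene's probes. The 48 h difference of late risers stayed above 0 in all 1050 recomputed values (lowest 0.62), and the 12 h difference reached 0.55. Features called at 48 h numbered 5259, 4286 to 5169 with one array left out, 615 in the deposited normalized table, 1745 by the methods' t-test after Benjamini-Hochberg and 1040 with a fold change of at least 2 as well. At 12 h 1921 were called, 651 to 1867 with one array left out (651 without 0 h replicate 2, 778 without 12 h replicate 2, 853 without 0 h replicate 1 and 1039 without 12 h replicate 1), 652 with 75th percentile scaling and 134 with the fold limit. At 12 h limma on the deposited table called 0 (299 at an unadjusted p under 0.05) and the methods' t-test 0 (2171 unadjusted). The cause was not tested. The replicate block gave 4895 calls at 48 h and 1284 at 12 h. The numbers do not pair the arrays (deviations correlated at -0.567, -0.575 and 0.631). In the crossed pairing, the array set block, 6728 and 3992 were called. Of 240 recounts of lists 88 moved by over 1.5 times. In the deposited normalized table, the genes higher at 48 h outside the late risers fell to 3 for autophagy, 0 for ER to Golgi transport, 2 for ER quality control, 5 for detoxification, 3 for triglyceride and sphingolipid turnover and 2 for Fc receptors, and 0 translation initiation genes were lower. With 2 arrays per time point no array could be tested for standing apart.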

Other observations

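The 15 probes without a single symbol that met both limits were 1.001 to 2.08 higher at 48 h and -0.091 to 0.20 from 0 h at 12 h.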
